A study of Homo sapiens with 9 samples.

Results

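WT-actin cells were compared with the parental HaCaT line to describe what an actin construct without a nuclear localization sequence changed across all measured genes. The comparison used 6 of the 9 whole-genome arrays of the study, 3 of parental cells and 3 of WT-actin cells, which were assigned by their labels. The arrays compared and the gene lists used below were chosen with earlier results of these data known. HaCaT is an immortalised keratinocyte line of the epidermis. Parental cells carried no construct. WT-actin cells carried β-actin fused to GFP and were a GFP-positive population kept after transfection and selection with G418. NLS-actin cells, the remaining 3 arrays, carried the same fusion with a nuclear localization sequence and were selected in the same way. Each construct was measured in 1 stable line, the promoter that drove it is not given in the sources used here, and no array held a line with GFP alone. The effect of the construct, of GFP, of selection and of other differences between the lines therefore cannot be told apart. Per the methods, the 3 arrays of each line are experimental replicates. Whether they came from separate cultures is not said, so that p-values measure only the spread between these arrays, which may be technical. In such bulk RNA, fewer cells that express a gene and less RNA per cell cannot be told apart.

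Actin is the protein of the cell's microfilaments, and its monomers also shuttle through the nucleus. Monomeric actin binds the cofactors of serum response factor (SRF), a transcription factor that binds the CArG box and controls many genes of the cytoskeleton. Keratinocytes attach through integrins, hold together through desmosomes and other junctions, and answer injury with chemokines and antimicrobial proteins. An expressed actin without a targeting sequence is commonly used as a control for one that is sent to the nucleus.

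The authors deposited MAS5 signals, which are intensities on a linear scale, brought to a common trimmed mean of 500.041 to 500.058 per array. A gene was represented by the brightest of its probe sets, and a gene was called dim where the mean signal of both lines lay below 50. Of 19775 genes, 8044 were dim. The median signal of an array ranged from 29.7 to 43.3, and precision is limited throughout by having 3 arrays per line. Along the first axis of the variation within lines, which held 24.7% of it, 1 array of each line stood on the opposite side from all 6 others. The mean of each line was removed beforehand, so that the scores of a line cancel out and 1 array must oppose its other 2. Only the side was free to differ between the lines. These were replicate 2 of the parental line, replicate 1 of WT-actin cells and replicate 2 of NLS-actin cells. The ratio of the 3′ to the 5′ ACTB control probe sets, a sign of RNA quality and of labelling, was 4.998, 7.96 and 6.28 in parental replicates 1 to 3 and 14.9, 6.79 and 3.82 in WT-actin replicates 1 to 3. ACTB is also the transfected gene, so that in the actin lines the construct may add to this ratio. The same ratio for GAPDH was 1.60, 1.40 and 1.41 in parental replicates 1 to 3 and 3.07, 1.52 and 1.39 in WT-actin replicates 1 to 3. In NLS-actin replicates 1 to 3 the ratio was 6.96, 12.8 and 7.98 for ACTB and 1.69, 1.64 and 1.95 for GAPDH. WT-actin replicate 1 was the highest of its line in both ratios, parental replicate 2 and NLS-actin replicate 2 in that of ACTB only. The part of these ratios in the differences between lines was not tested, and counts without the arrays named above stand beside the results.

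The label of the cells was checked against keratinocyte markers. KRT5 and KRT14, the keratins of basal keratinocytes, had signals of 8335 ± 1748 and 9546 ± 1501 (SD, n = 3) in parental cells and 9805 ± 2583 and 11167 ± 2306 (SD, n = 3) in WT-actin cells, and neither passed the test (adjusted p = 0.871 and 0.842). The summed signal of the 8 measured keratinocyte markers was 45163 to 57902 in parental and 54908 to 77087 in WT-actin arrays. Among markers of other cell types, 5 of 7 fibroblast markers, 4 of 5 melanocyte markers, all 4 endothelial markers and 4 of 5 immune markers were dim. Their summed signals in parental and in WT-actin arrays were 481 to 970 and 314 to 1144 for fibroblast markers, 2507 to 2778 and 1782 to 2351 for melanocyte markers, 65 to 105 and 23 to 107 for endothelial markers, and 81 to 138 and 54 to 66 for immune markers. PERP, a desmosomal protein of the keratinocyte list, had a log2 fold change of 0.37 (adjusted p = 0.658), and COL1A2, a collagen chain of fibroblasts, was dim with -2.04 (adjusted p = 0.646). The melanocyte sum was nearly all MITF, which was not dim. Among the immune markers, PTPRC and CD3E were dim in every line. CD14 was the immune marker that was not dim, with means of 77.0 in parental, 18.6 in WT-actin and 106 in NLS-actin cells. Its log2 fold change between WT-actin and parental cells was -1.93 and did not pass.

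ACTB, the gene of the transfected β-actin, had signals of 8874, 13241 and 14977 in parental replicates 1 to 3 and 22131, 15924 and 14097 in WT-actin replicates 1 to 3. The groups overlapped, since WT-actin replicate 3 lay below parental replicate 3, and WT-actin replicate 1, the array with the highest 3′ to 5′ ratio, was the brightest. The log2 fold change was 0.50 (SE 0.20, adjusted p = 0.679), and the log2 fold changes of the 3 ACTB probe sets ranged from 0.45 to 0.52. These probe sets were not separated into transcripts of the construct and of the cell's own gene. The smooth muscle isoform ACTA2 had a log2 fold change of 0.11, and ACTA1, ACTC1 and ACTG2 were dim.

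At an adjusted p under 0.05 over all 19775 genes in limma, 32 genes differed between WT-actin and parental cells, 7 up-regulated and 25 down-regulated, which is 0.162%, 0.0354% and 0.126% of the genes. Log2 fold changes ran from -7.33 to 3.22, every gene changed more than 2-fold and 23 changed more than 4-fold. None of the 32 was dim, although 11 of the down-regulated genes had a WT-actin mean below 50, where the size of a fold is uncertain. All 3 WT-actin arrays lay beyond all 3 parental arrays for each of the 32, as they did for 12.3% of all genes, above them for 4.69% and below them for 7.65%. At an unadjusted p under 0.05 there were 1323 genes, 6.69% of those tested, of which 487 were higher (2.46%) and 836 lower (4.23%) in WT-actin cells. With a fold above 2 as well, the thresholds named in the methods, 604 genes passed (3.05%), 177 higher (0.895%) and 427 lower (2.16%), and 343 of them were dim. After quantile normalization the split was 295 higher and 313 lower. The median log2 fold change over all genes was -0.061. The count of 32 became 5, 18 and 17 without parental replicate 1, 2 or 3 and 12 without WT-actin replicate 2. It was 41, with 27 of the 32 genes among them, when the 3 arrays on the opposite side of the first axis were left out together. Without WT-actin replicate 1 it was 23, and with the ACTB 3′ to 5′ ratio as a covariate it was 90, a fit that kept all 32.

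**Figure D1:**
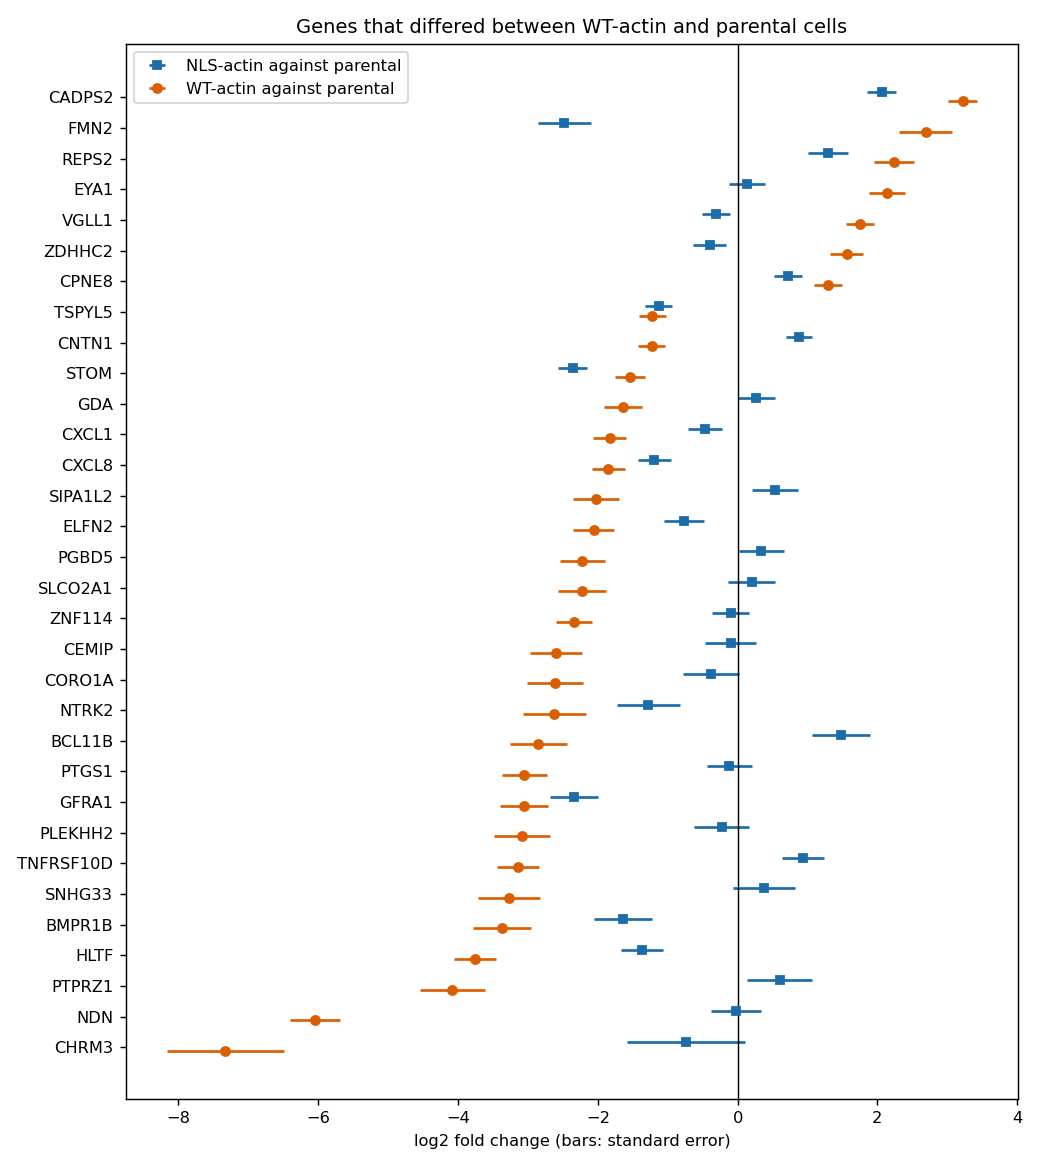
Log2 fold change against parental cells of the 32 genes that differed between WT-actin and parental cells, for either actin line, each with its standard error from limma over 3 arrays per line. WT-actin values run from -7.33 for CHRM3 to 3.22 for CADPS2. The NLS-actin values of many genes lie near 0, and both sets of values share the 3 parental arrays.

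The log2 fold change farthest from 0 was that of CHRM3. This muscarinic acetylcholine receptor had signals of 499.5, 440.1 and 320.1 in parental replicates 1 to 3 and 2.81, 11.8 and 0.508 in WT-actin replicates 1 to 3. Every WT-actin array lay near the floor of the measurement, and every parental array was well above it. The log2 fold change was -7.33 (SE 0.84, adjusted p = 0.00345), or -4.61 when all probe sets of the gene were averaged, so that the size of the fall is uncertain. PTPRZ1, a receptor-type tyrosine phosphatase, fell from 858, 681 and 312 in the parental arrays to 52.3, 38.6 and 18.8 in the WT-actin arrays. The lowest parental array was still well above the highest WT-actin array, and the log2 fold change was -4.08 (SE 0.47, adjusted p = 0.00356). CNTN1, a contactin that binds this phosphatase, fell by less, from 1553, 1913 and 1645 to 839, 571 and 792, a log2 fold change of -1.23 (SE 0.19, adjusted p = 0.0235). Both members of this pair were thus lower in WT-actin cells.

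GFRA1, BMPR1B and NTRK2, which are receptors or co-receptors for growth factors, were down-regulated. GFRA1, the co-receptor for glial cell line-derived neurotrophic factor, had parental signals of 530.0, 413.5 and 368.6 and WT-actin signals of 53.9, 75.2 and 34.5. The 3 WT-actin arrays were close to the dim range, and the log2 fold change was -3.06 (SE 0.34, adjusted p = 0.00318). BMPR1B, a receptor for bone morphogenetic proteins, went from 261, 159 and 159.8 to 24.9, 16.9 and 14.3, a log2 fold change of -3.37 (SE 0.42, adjusted p = 0.00636). NTRK2, the receptor of brain-derived neurotrophic factor, went from 124, 141 and 72.9 to 24.7, 18.1 and 12.2. Its adjusted p of 0.0482 (log2 fold change -2.62, SE 0.45) was the last inside the threshold, and it passed in 5 of 20 alternatives, the fewest of the 32. TNFRSF10D, a decoy receptor for the death ligand TRAIL, had signals of 225, 203 and 251 in parental and 25.7, 20.4 and 31.7 in WT-actin arrays. The arrays of each line were tightly grouped, with a log2 fold change of -3.14 (SE 0.30, adjusted p = 0.00125). ELFN2, a leucine-rich repeat membrane protein, fell from 807, 847 and 463 to 220.4, 168 and 117 (log2 fold change -2.06, adjusted p = 0.0135).

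PTGS1 and SLCO2A1, which make and carry prostaglandins, were down-regulated. PTGS1, the constitutive cyclooxygenase, had parental signals of 1082, 1024 and 931 and WT-actin signals of 138, 72.4 and 182. The parental arrays differed little among themselves, and the WT-actin arrays were all several fold lower, with a log2 fold change of -3.05 (SE 0.32, adjusted p = 0.00219). PTGS2, the inducible cyclooxygenase, had a log2 fold change of -0.51 (adjusted p = 0.746), and PTGES, a prostaglandin E synthase, of -0.08 (adjusted p = 0.964). SLCO2A1, the prostaglandin transporter of the plasma membrane, fell from 1323, 833 and 965 to 135, 245 and 311 (log2 fold change -2.23, SE 0.34, adjusted p = 0.0216).

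CXCL8 and CXCL1, chemokines that attract neutrophils, were down-regulated to a similar extent in WT-actin cells. CXCL8 had signals of 1275, 990 and 1573 in parental and 307, 287 and 485 in WT-actin arrays, a log2 fold change of -1.85 (SE 0.24, adjusted p = 0.0087). CXCL1 had 1620, 1324 and 1174 in parental and 466, 395 and 302 in WT-actin arrays, a log2 fold change of -1.83 (SE 0.24, adjusted p = 0.00895). No WT-actin array reached a parental array for either gene. The related CXCL6, whose gene lies between them in the order of measured genes, had signals of 317 ± 72.1 and 160 ± 58.1 (SD, n = 3) and a log2 fold change of -1.02 (adjusted p = 0.541). CXCL2, CXCL3 and CXCL5, of the same family, were dim, with values of -0.24, -0.10 and -0.04.

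The promoters of these neighbours are shown because both genes fell together and because NF-kB, an activator of inflammatory genes, is known to act at them. The sequences are those of RefSeq on GRCh38.p14, 5′ to 3′ on the gene's own strand, from 250 bases before to 50 bases after the start of the gene. That of CXCL8 is chr4:73740319-73740618 and that of CXCL1 is chr4:73869143-73869442, both on the plus strand. Capitals mark matches to the NF-kB motif as searched, on either strand and with overlapping or adjoining matches merged. The motif is G, G, a purine, any base, 3 pyrimidines, C and C, with an optional further G in front.
CXCL8: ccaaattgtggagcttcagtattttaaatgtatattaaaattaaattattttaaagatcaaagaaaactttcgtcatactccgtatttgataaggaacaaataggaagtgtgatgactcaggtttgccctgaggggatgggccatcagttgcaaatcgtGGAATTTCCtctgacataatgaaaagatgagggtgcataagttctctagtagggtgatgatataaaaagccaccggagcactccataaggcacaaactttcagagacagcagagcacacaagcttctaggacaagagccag
CXCL1: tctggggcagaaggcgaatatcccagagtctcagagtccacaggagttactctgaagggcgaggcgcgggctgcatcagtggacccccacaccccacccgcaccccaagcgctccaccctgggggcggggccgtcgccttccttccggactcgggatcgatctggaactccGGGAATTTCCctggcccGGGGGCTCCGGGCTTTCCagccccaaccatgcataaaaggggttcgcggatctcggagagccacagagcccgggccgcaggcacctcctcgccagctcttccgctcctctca
The match in CXCL8 begins 91 bases before the start and the first of the 2 marked stretches in CXCL1 79 bases before it. Of the 25 called genes with a RefSeq promoter, the NF-kB motif was found in 8 of the 21 down-regulated genes (38.1%) and in 1 of the 4 up-regulated genes, against 28.1% of the promoters of all 15384 measured genes that have one. The AP-1 motif (TGANTCA) was found in 1 of the 21 and in 6.06% of all promoters, and the interferon-stimulated element in 1 of the 21 and in 2.97% of all. The CArG box, which is C, C, 6 bases of A or T, G and G, had no match in these 25 windows and one in 1.24% of all promoters. Such matches describe letters in a window and are no evidence of binding.

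The smallest adjusted p was that of NDN. NDN, the imprinted gene of the growth regulator necdin, had signals of 1538, 1270.4 and 678 in parental replicates 1 to 3 and 22.1, 10.4 and 19.8 in WT-actin replicates 1 to 3. All 3 WT-actin arrays were in the dim range, whereas the parental arrays were bright, and the log2 fold change was -6.05 (SE 0.36, adjusted p = 2.24e-05). HLTF, a DNA translocase of the SWI/SNF type that acts at stalled replication forks, had 611, 885 and 657 in parental and 72.6, 36.1 and 54.5 in WT-actin arrays. The fall was similar in all 3 WT-actin arrays, with a log2 fold change of -3.76 (SE 0.30, adjusted p = 0.000177). BCL11B, a zinc finger transcription factor of epidermis and T cells, went from 122, 201 and 172 to 17.4, 18.7 and 34.4 (log2 fold change -2.85, SE 0.41, adjusted p = 0.0135). Averaged over all probe sets, the log2 fold change of BCL11B was -1.05 and did not pass. That average includes a dim probe set with 1.65, at 6.53 in parental and 12.9 in WT-actin cells, and another probe set with -1.96.

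ZNF114, a further zinc finger gene, fell from 918, 607 and 578 to 134, 137 and 136 (log2 fold change -2.34, adjusted p = 0.00345). The 3 WT-actin arrays were nearly equal for this gene. PGBD5, derived from a DNA transposase, fell from 122 ± 11.1 to 26.2 ± 2.26 (SD, n = 3), and TSPYL5, a member of the TSPY-like family, from 1182 ± 85.1 to 509 ± 75.3 (SD, n = 3). Their log2 fold changes were -2.22 and -1.22 (adjusted p = 0.0135 and 0.0221). In contrast, EYA1, a transcriptional co-activator and phosphatase, rose from 75.4, 91.6 and 90.9 to 397, 386 and 348, and VGLL1, a cofactor of the TEAD transcription factors, from 1095, 1407 and 877 to 4341, 4044 and 2919. The arrays of the lines were far apart for both, and the log2 fold changes were 2.14 (SE 0.26, adjusted p = 0.00598) and 1.75 (SE 0.20, adjusted p = 0.00345). Both probe sets have names ending in _s_at, which were left out with those ending in _x_at in an alternative without cross-hybridizing probe sets. Only a dim probe set then remained for each gene, with values of -0.81 for EYA1 and -0.99 for VGLL1. Another probe set of VGLL1 ending in _s_at was at 142 in parental and 524 in WT-actin cells. Its log2 fold change was 1.95 (limma adjusted p = 0.0355 over all probe sets).

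FMN2 was up-regulated, and CORO1A, PLEKHH2 and STOM were down-regulated. FMN2, a formin that nucleates actin filaments, had signals of 78.9, 53.8 and 74.9 in parental and 473, 487 and 374 in WT-actin arrays. It rose in every WT-actin array, with a log2 fold change of 2.69 (SE 0.38, adjusted p = 0.0123). Averaged over all its probe sets the value was 0.88 and did not pass, but its other probe sets were all dim. CORO1A, a coronin that binds actin filaments, fell from 77.9, 87.3 and 78.0 to 16.7, 11.6 and 12.2 (log2 fold change -2.61, SE 0.40, adjusted p = 0.0221), from a parental level not far above the dim range. PLEKHH2, an actin-binding protein with pleckstrin homology domains, fell from 765, 973 and 412 to 111, 76.7 and 58.1 (log2 fold change -3.09, SE 0.40, adjusted p = 0.00846). STOM, the integral membrane protein stomatin, fell from 1752, 1656 and 1773 to 508, 510.3 and 809.9 (log2 fold change -1.54, adjusted p = 0.011). SIPA1L2, a GTPase-activating protein of the SIPA1 family, had a log2 fold change of -2.02 (adjusted p = 0.0374). None of these falls left an overlap between the lines.

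The most significant rise was that of CADPS2, a protein that primes dense-core vesicles for release. Its signals were 163, 188 and 139 in parental replicates 1 to 3 and 1763, 1195 and 1641 in WT-actin replicates 1 to 3. The lowest WT-actin array was several fold above the highest parental array, and the log2 fold change was 3.22 (SE 0.21, adjusted p = 2.61e-05). REPS2, a protein of receptor endocytosis, rose from 155, 171 and 115 to 668, 477 and 1002 (log2 fold change 2.24, SE 0.29, adjusted p = 0.00695), with a wide spread among the WT-actin arrays. CPNE8, a calcium-dependent phospholipid-binding copine, rose from 204 ± 13.8 to 501 ± 67.5 (SD, n = 3) and ZDHHC2, a palmitoyltransferase, from 241 ± 38.9 to 712 ± 100.3 (SD, n = 3). Their log2 fold changes were 1.29 and 1.56 (adjusted p = 0.0277 and 0.0216). NDN and CADPS2 passed in all 20 alternative analyses.

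The remaining down-regulated genes were of other kinds. CEMIP, which degrades hyaluronan, fell from 191 ± 34.7 to 33.2 ± 13.0 (SD, n = 3), and GDA, a guanine deaminase, from 1016 ± 329 to 317 ± 33.95 (SD, n = 3). Their log2 fold changes were -2.60 and -1.64 (adjusted p = 0.0135 and 0.0402). SNHG33, a non-coding small nucleolar RNA host gene, fell from 84.2, 56.5 and 116 to 9.01, 6.31 and 10.8 (log2 fold change -3.27, adjusted p = 0.00895). Without probe sets with names ending in _s_at or _x_at, only a dim probe set remained for CEMIP, GDA and STOM. Their log2 fold changes were then -0.93, -0.82 and -0.76, and none of these genes passed. Another bright probe set of STOM, also left out there, was at 1500 in parental and 493 in WT-actin cells. Its log2 fold change was -1.61 (limma adjusted p = 0.03 over all probe sets). The genes just outside the threshold were ELOVL7, an elongase of fatty acids, with 364, 300.2 and 333 in parental and 701, 846 and 920.4 in WT-actin arrays (log2 fold change 1.30, adjusted p = 0.0505), and COL4A4, a basement membrane collagen chain (2.08, adjusted p = 0.0572). The 32 genes had 50 further probe sets, of which 19 were not dim, and all 19 had the direction of the brightest.

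**Figure D2:**
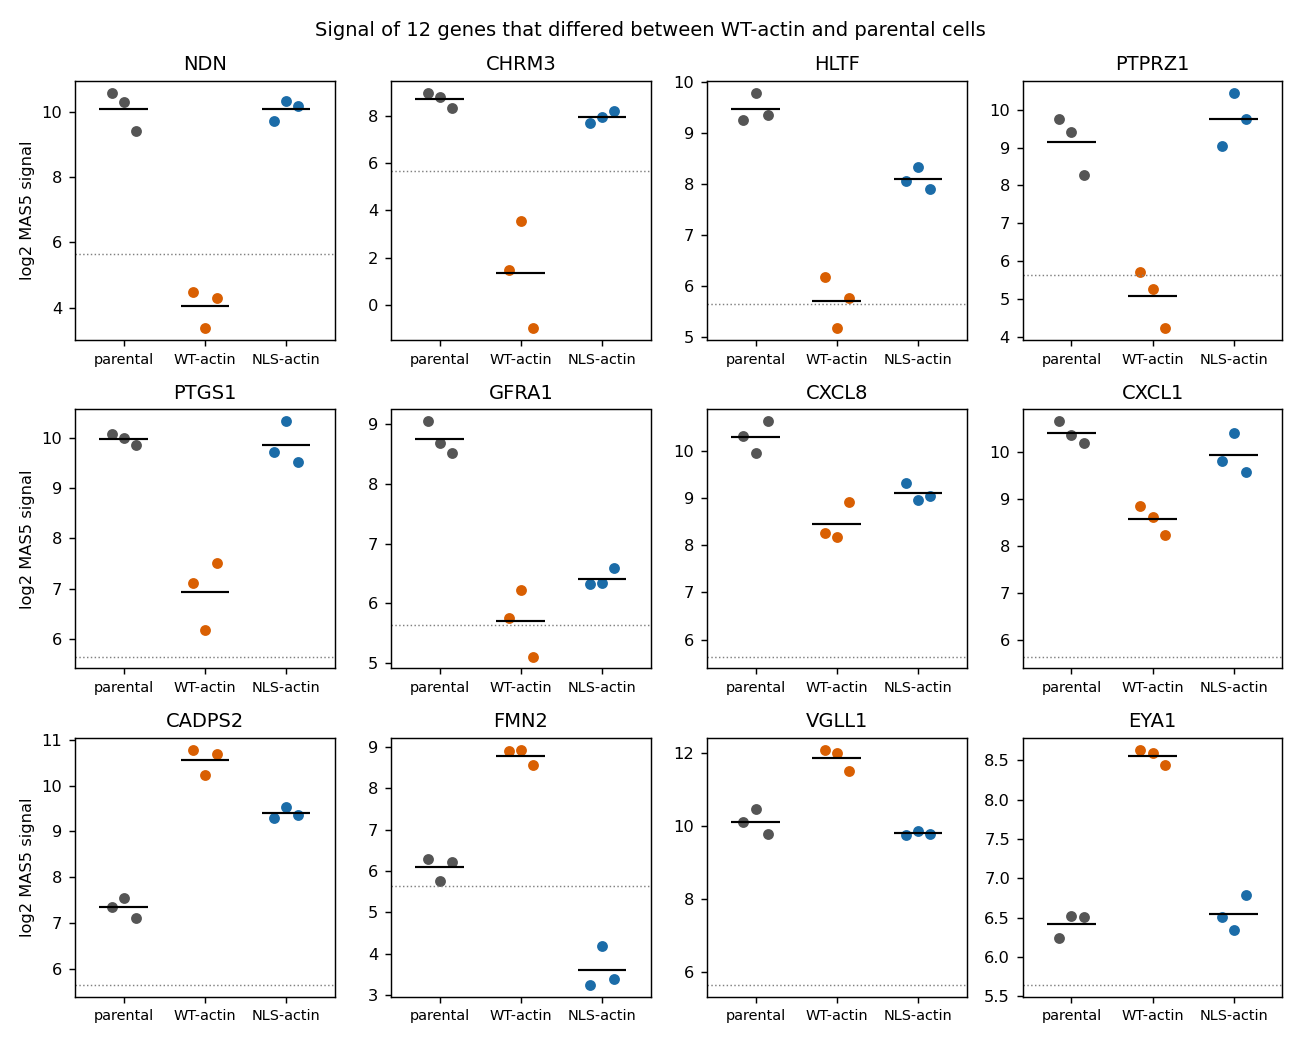
MAS5 signal on a log axis of 12 genes in each of the 9 arrays, 3 per line, with a line at the mean of the log2 values of each cell line and a dotted line at a signal of 50, below which a gene was called dim. In each panel the 3 WT-actin points lie all above or all below the 3 parental points, and the WT-actin points of NDN and CHRM3 lie below the dotted line.

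The function lists, 30 in number, set these genes in their pathways. A total of 559 list genes were measured, of which 7 passed, in 5 lists, where 0.162% of all genes did. FMN2, PTGS1, CXCL8, CXCL1, GFRA1, BMPR1B and CADPS2 were those genes, and 74 list genes had an unadjusted p under 0.05, beside 6.69% of all genes. The lists were chosen with earlier results of these data known, and they hold fewer dim genes than the 40.7% of all genes. Their counts, here and for each list below, therefore do not measure an enrichment. List medians of the log2 fold change ran from -0.70 to 0.30, beside -0.061 over all genes. Of 44 measured genes of actin nucleation and turnover, 32 had a positive value, with a median of 0.10, or 0.06 after quantile normalization, and FMN2 passed. Over all genes 43.6% had a positive value, against which the counts of positive values in the lists are to be read. The values also varied with level, so that this share is a poor measure for lists of bright or of weak genes. Outside chromosome 14, genes that were not dim had a median of 0.036 with a parental signal over 1000 and of -0.162 with one under 200. WASF3, an activator of the Arp2/3 complex, came next in that list, with signals of 682 ± 35.7 and 1233 ± 153 (SD, n = 3) and a log2 fold change of 0.85 (adjusted p = 0.0935). The 3 WT-actin arrays were above the parental arrays for WASF3. CFL2, a cofilin that severs actin filaments, had signals of 2367 ± 239 and 1634 ± 233 (SD, n = 3), with no overlap and a value of -0.54 (adjusted p = 0.471). None of the 23 contractile SRF targets passed, with a median of -0.01, and 3 of them, MYLK, TPM1 and CNN3, had an unadjusted p under 0.05 with values of 0.48, 0.44 and 0.42. None of the 18 immediate early genes passed either, with a median of -0.01, and PHLDA1 among them had a value of 0.43 (adjusted p = 0.667). The 11 genes of nuclear actin transport and of SRF cofactors had a median of -0.12, with -0.30 for the actin importer IPO9 and -0.12 for the exporter XPO6 (adjusted p = 0.782 and 0.935). ELK1, an SRF cofactor of the ternary complex factors, had a value of -0.60 (adjusted p = 0.712), and its arrays overlapped between the lines.

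No gene of the adhesion lists passed. Of 13 integrin subunits, 11 had a positive log2 fold change, with a median of 0.17, or 0.10 after quantile normalization. ITGB1, the integrin β1 subunit, had signals of 6995, 6390.4 and 7111 in parental and 8937, 8475 and 8392 in WT-actin arrays, with a log2 fold change of 0.33 (adjusted p = 0.681). The lines did not overlap for ITGB1. VCL, the focal adhesion protein vinculin, had a log2 fold change of 0.18 (adjusted p = 0.821) and MYL9, a myosin regulatory light chain, of -0.32 (adjusted p = 0.926), with a wide spread of 56.0, 83.3 and 219 in the WT-actin arrays. The 24 focal adhesion genes had a median of 0.00 and the 21 genes of epithelial junctions of 0.10, or -0.07 after quantile normalization. The parvins PARVA and PARVB, which bind the integrin-linked kinase, had values of 0.83 and -1.57 (adjusted p = 0.335 and 0.377). PARVA was at 1352, 762 and 995 in parental and 1702, 1906 and 1774 in WT-actin arrays. Neither parvin overlapped between the lines, and their values had opposite signs. Among junction genes, the connexins GJB6 and GJA1 had values of -1.67 and -0.53 (adjusted p = 0.274 and 0.584) with no overlap, and the desmosomal cadherin DSC2 one of 0.46 (adjusted p = 0.641) with overlap. GJB6 was at 114 ± 10.2 in parental and 37.6 ± 13.4 in WT-actin cells (SD, n = 3). NFATC1, a calcium-regulated transcription factor, had a value of -0.16 and BCL2, an inhibitor of apoptosis, was dim with a value of -0.90 (adjusted p = 0.973 and 0.829).

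Stress keratins and alarmins had the lowest median of the function lists, ahead of Notch genes, differentiation genes and growth factor receptors, and the chemokine list followed these. Of 23 chemokines, interleukins and enzymes of prostaglandin synthesis, 5 had a positive value, with a median of -0.24. The 13 that were not dim had a median of -0.48, and CXCL8, CXCL1 and PTGS1 were down-regulated, beside 0.126% of all genes. CCL2, a chemokine for monocytes, was at 1590 ± 377 and 1540 ± 815 (SD, n = 3), and IL18, an interleukin of the IL-1 family, had a value of 0.33 (adjusted p = 0.681). Among 10 stress keratins and alarmins, all 10 had a negative log2 fold change, with a median of -0.70, or -0.49 after quantile normalization, and none passed. The 6 of them that were not dim had a median of -0.46. PI3, an inhibitor of elastase, had signals of 235, 165 and 148 in parental and 68.9, 38.4 and 87.6 in WT-actin arrays, with a value of -1.54 (adjusted p = 0.291). NFKBIA, the inhibitor of NF-kB that is itself a target of it, had 715 ± 60.6 and 426 ± 40.4 (SD, n = 3) and a value of -0.75 (adjusted p = 0.274), in a list of Toll-like, interleukin-1 and NF-kB signalling with a median of 0.01. In the same list CD14, a co-receptor for lipopolysaccharide, and TLR5, the receptor for flagellin, had values of -1.93 and -1.44 (adjusted p = 0.297 and 0.609), with WT-actin signals below 50. The 31 interferon-induced genes had a median of -0.14, with 9 positive. The ligase HERC5, the transcription factor IRF1 and the ubiquitin-like ISG15 had the smallest unadjusted p of that list, with values of -1.32, -0.70 and -0.66 (adjusted p = 0.291, 0.669 and 0.678). ISG15 overlapped between the lines and the other two did not.

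Among signalling pathways, 4 of the 14 measured Notch genes had an unadjusted p under 0.05 and a negative value, beside 4.23% of all genes, and the median was -0.35. They were the ligand JAG2 and the targets NRARP, HEY1 and HES2, with values of -0.73, -0.90, -0.97 and -0.70 (adjusted p = 0.272, 0.334, 0.586 and 0.541). None passed. The receptor tyrosine kinase and GDNF family list had a median of -0.30 over 19 genes, of which 6 were positive and 1, GFRA1, passed. MET, the receptor of hepatocyte growth factor, had signals of 5040, 4451 and 5577 in parental and 7833, 7539 and 6402 in WT-actin arrays. Every WT-actin array was above every parental array, but the value of 0.53 did not pass (adjusted p = 0.712). EGFR and ERBB2, receptors of the epidermal growth factor family, had values of 0.08 and 0.10 (adjusted p = 0.938 and 0.964). A further receptor of that family, ERBB4, had one of -1.11 (adjusted p = 0.47), and NRTN, a GDNF family ligand, was dim with -2.39 (adjusted p = 0.609). The TGF-β and BMP list had a median of -0.18 over 22 genes, with BMPR1B down-regulated. Its ligand genes TGFB3 and INHBA had values of -1.05 and 0.62 (adjusted p = 0.561 and 0.639). All 6 ligands of the epidermal growth factor receptor had a positive value, with a median of 0.30 and adjusted p from 0.882 upwards. Hippo pathway targets had a median of 0.21 over 12 genes. AMOTL1, a protein that binds YAP, was at 4869 ± 593 in parental and 7020.0 ± 853 in WT-actin cells (SD, n = 3), with a value of 0.53 (adjusted p = 0.34) and no overlap. YAP1, the co-activator of the pathway, had a value of 0.29 and AJUBA, a LIM protein, of -0.41 (adjusted p = 0.736 and 0.694). The 20 measured Wnt genes had a median of 0.03, with 10 positive, and none passed. FZD1, a Wnt receptor, was at 421 ± 49.9 in parental and 239 ± 59.7 in WT-actin cells (SD, n = 3), with no overlap and a value of -0.84 (adjusted p = 0.353). AXIN2, a target and inhibitor of the pathway, was dim with -2.66 (adjusted p = 0.44). LEF1, a transcription factor of Wnt signalling, was at 1.57, 2.58 and 17.6 in parental and 35.3, 62.2 and 87.1 in WT-actin arrays (log2 fold change 3.80, adjusted p = 0.159), so that its parental level lay near the floor.

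No gene passed in the lists of growth, differentiation and metabolism. The 32 genes of cell cycle and DNA replication had a median of 0.06, or -0.05 after quantile normalization, and MKI67, a marker of dividing cells, a value of -0.01. CCND1, cyclin D1, had a value of 0.41 (adjusted p = 0.544) with no overlap, and CASP8, an initiator caspase, one of 0.51 (adjusted p = 0.745) with overlap. All 9 basal keratinocyte genes had a positive value, with a median of 0.18, or 0.03 after quantile normalization. The 27 differentiation genes, of which 10 were dim, had a median of -0.31, or -0.17 after quantile normalization. The cornified envelope genes SPRR1B and SPRR3 had values of -1.37 and -1.31 and CSTA, a protease inhibitor of the envelope, of 0.39 (adjusted p = 0.471, 0.561 and 0.679). SPRR1B was at 596, 779 and 412 in parental and 154, 171 and 414 in WT-actin arrays, so that WT-actin replicate 3 lay within the parental range. Among genes of the unfolded protein and heat shock response, DDIT3 and TRIB3 had values of 0.70 and 0.45 (adjusted p = 0.578 and 0.733). The median of these 17 genes was 0.19, or 0.06 after quantile normalization. That of 9 housekeeping genes was 0.22, and that of 22 genes of hypoxia and glycolysis 0.09, but after quantile normalization they were -0.04 and -0.02. SLC2A3, a glucose transporter, had a value of 0.69 and EGLN3, a prolyl hydroxylase that acts on the hypoxia-inducible factor, of -1.28 (adjusted p = 0.599 and 0.625). SQLE, an enzyme of cholesterol synthesis, had a value of -0.43 and SNAP23, a protein of vesicle fusion, of 0.38 (adjusted p = 0.687 and 0.471). The lines overlapped for none of these 4 genes. GSTM3, a glutathione transferase, was at 645 ± 102 in parental and 189 ± 49.9 in WT-actin cells (SD, n = 3), with a value of -1.80 (adjusted p = 0.102). GSTA4, a further glutathione transferase, and AKR1C1, an aldo-keto reductase, had values of -1.71 and -0.86 (adjusted p = 0.733 and 0.625), and both overlapped between the lines. KLK10, a kallikrein, was at 3438 ± 471 in parental and 2196 ± 214 in WT-actin cells (SD, n = 3), with a value of -0.64 (adjusted p = 0.221), and the metalloproteinase inhibitor TIMP2 had one of 0.44 (adjusted p = 0.618). TIMP3, an inhibitor of the same kind, had a value of -1.23 (adjusted p = 0.13) and NID1, the basement membrane protein nidogen, of -1.35 (adjusted p = 0.241). The arrays of KLK10, TIMP2, GSTM3, TIMP3 and NID1 did not overlap between the lines.

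**Figure D3:**
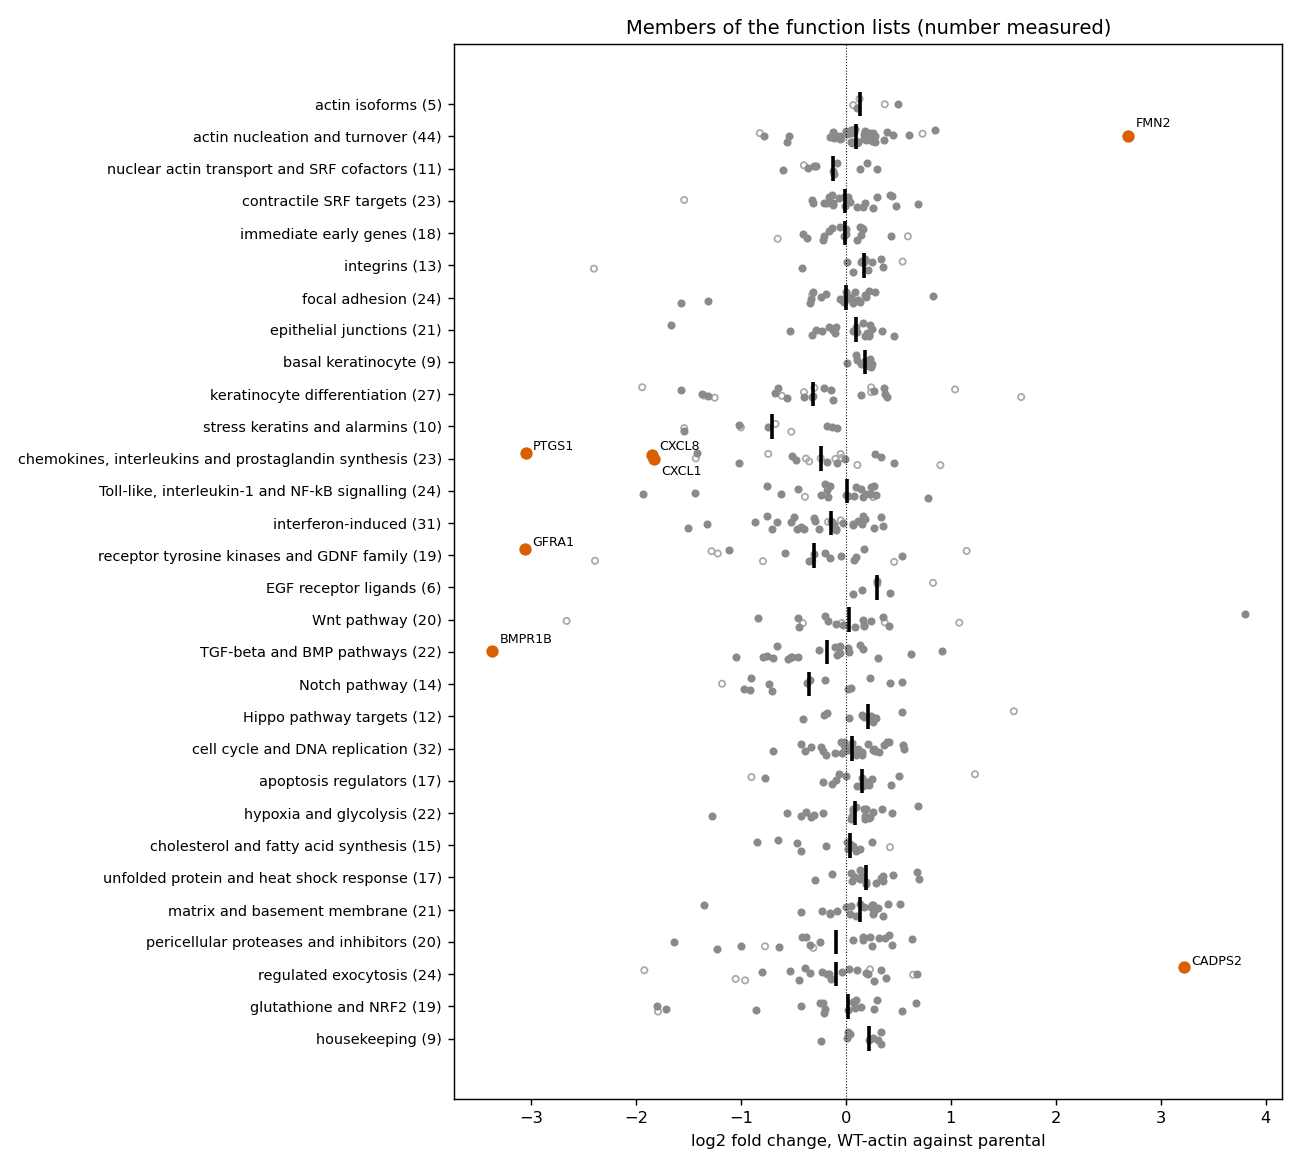
Log2 fold change between WT-actin and parental cells of every measured gene of the 30 function lists, 1 row per list, with a black bar at the list's median. Open points are dim genes and orange points the 7 genes at an adjusted p under 0.05. Medians lie between -0.70 for stress keratins and alarmins and 0.30 for ligands of the epidermal growth factor receptor.

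The NLS-actin arrays show which of the 32 genes also stood apart from parental cells there, with the reservation that both comparisons share the parental arrays. CADPS2, STOM, GFRA1 and TSPYL5 passed in NLS-actin cells in the same direction, by 2.06, -2.36, -2.34 and -1.13 on the log2 scale (adjusted p = 0.00212, 0.00107, 0.021 and 0.0488), where 0.126% of all genes passed. FMN2 passed in the opposite direction with -2.48 (adjusted p = 0.0325), and its NLS-actin signals of 9.51, 18.3 and 10.5 lay in the dim range. When same-numbered parental and NLS-actin arrays were treated as pairs, 4 of these 5 genes remained and TSPYL5 did not pass (adjusted p = 0.0647). A direct test of WT-actin against NLS-actin cells, which does not use the parental level but shares the 3 WT-actin arrays, called 145 genes or 0.733%. Of the 32 genes 23 passed it, 18 of them lower and 5 higher in WT-actin cells. The 32 had been picked on these same WT-actin arrays, so that this count is favoured by the selection and is no independent support. NDN was at 851, 1289 and 1157 in NLS-actin replicates 1 to 3, within the range of the parental arrays, and differed between the actin lines by -6.03 on the log2 scale (adjusted p = 2.33e-05). CHRM3 (-6.59), PTPRZ1 (-4.67), PTGS1 (-2.93) and HLTF (-2.39) were also lower in WT-actin than in NLS-actin cells, and VGLL1 (2.06) and EYA1 (2.01) were higher. HLTF was at 267, 322 and 239 in NLS-actin cells, below all parental and above all WT-actin arrays, with a value of -1.37 against parental cells (adjusted p = 0.171). CXCL1 differed between the actin lines by -1.36 (adjusted p = 0.0244), whereas CXCL8 differed by -0.66 (adjusted p = 0.371) and was at 634, 498 and 530 in NLS-actin cells, below all parental arrays.

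The 32 genes were also placed in the order of measured genes that were not dim along each chromosome. Of the 32, 8 formed 4 pairs that lay within 3 genes of each other. CHRM3 and FMN2 were adjacent in that order and moved in opposite directions (-7.33 and 2.69). PTPRZ1 and CADPS2 lay 2 genes apart and did the same (-4.08 and 3.22), as did CNTN1 and CPNE8 (-1.23 and 1.29), whereas CXCL1 and CXCL8, also 2 apart, fell together. AASS, the gene between PTPRZ1 and CADPS2, had a value of 0.46 (adjusted p = 0.745), and KIF21A, between CNTN1 and CPNE8, of 0.55 (adjusted p = 0.609). The 169 other neighbours within 3 genes had a median of -0.03, and 3 of them changed more than 2-fold. This pattern was noticed after the values were seen and was not tested.

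Chromosome 14 had the lowest median log2 fold change of the 23 chromosomes. Of its 391 genes that were not dim, 85.9% had a negative log2 fold change, with a median of -0.334, against a median of -0.034 for 11320 genes of other chromosomes. An unadjusted p under 0.05 with a lower level was reached by 106 of the 391, or 27.1%, and by 4.45% of the genes elsewhere. The medians of the other 22 chromosomes ranged from -0.145 to 0.170. The median deviation of chromosome 14 genes from their mean over 9 arrays, less that of all other genes, was 0.094, 0.104 and 0.082 in parental replicates 1 to 3, -0.197, -0.229 and -0.195 in WT-actin replicates 1 to 3, and 0.113, 0.115 and 0.105 in NLS-actin replicates 1 to 3. The 3 WT-actin arrays stood apart from the other 6, WT-actin replicate 1 and parental replicate 2 lay with their lines, and the difference between WT-actin and parental arrays was -0.301. The next largest difference of any chromosome was 0.189. Differences between lines were not particular to chromosome 14, since WT-actin and parental arrays did not overlap for 12 of the 23 chromosomes, and WT-actin arrays stood apart from both other lines for 4 of them, chromosomes 10, 11, 14 and 16. On chromosome 11 the WT-actin arrays were at 0.133, 0.097 and 0.092, the parental arrays at -0.070, -0.027 and -0.034 and the NLS-actin arrays at -0.072, -0.059 and -0.074. In NLS-actin cells against parental cells chromosome 14 had a median of 0.028.

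The shift ran along the whole chromosome. In 8 consecutive stretches of 48 or 49 genes, the medians were -0.376, -0.371, -0.202, -0.313, -0.300, -0.334, -0.435 and -0.427, and 77.6% to 93.8% of the genes were negative. It was present at every level of signal, with medians of -0.524, -0.476 and -0.229 for genes with a parental signal under 200, from 200 to 1000 and over 1000, beside -0.162, -0.125 and 0.036 for other genes. BCL11B was the 1 gene of the chromosome that passed. The chromosome was singled out after all 23 were seen, so that these values are a description with no test, and copy number was not measured.

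**Figure D4:**
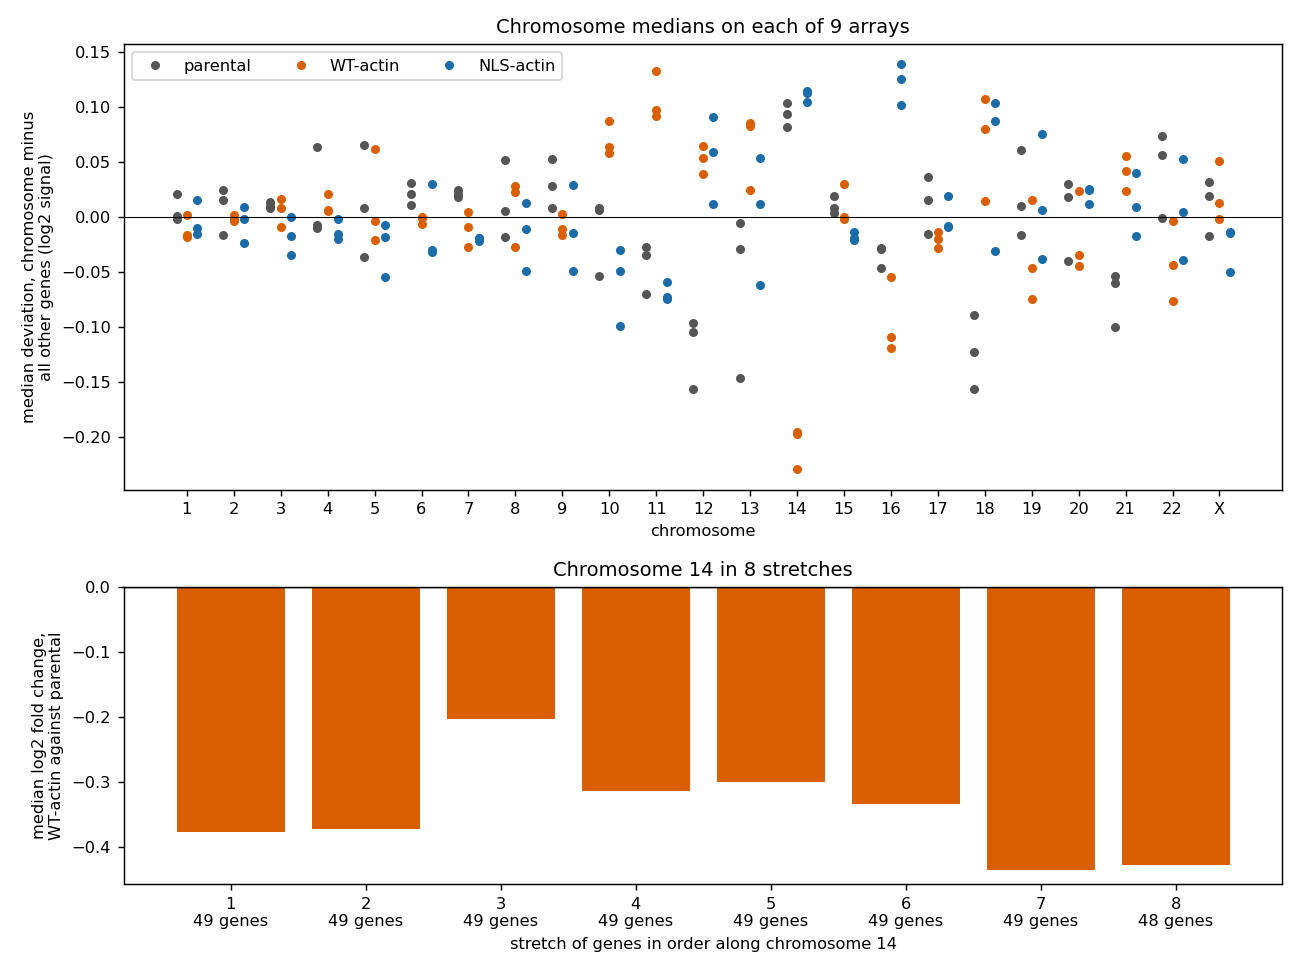
Upper panel, median deviation of the genes of each chromosome from their mean over 9 arrays, in log2 units, with 1 point per array coloured by cell line; the 3 WT-actin points of chromosome 14 lie at -0.195 to -0.229, apart from the other arrays. Lower panel, bars at the median log2 fold change between WT-actin and parental cells in 8 consecutive stretches of chromosome 14 genes, between -0.435 and -0.202.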

How the data were processed

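Total RNA of 9 samples of HaCaT lines, 3 per line, was hybridised to Affymetrix U133 Plus 2.0 arrays. The authors deposited MAS5 intensities, linear signals scaled to 1 trimmed mean per array, of which no version or scaling target is given in the sources used here. Detection calls were not used here.

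The 62 control probe sets were left out of the tests. Of 54613 others, 41091 carried 1 gene symbol in the array annotation, 41037 of them updated through their Entrez identifiers, which gave 19775 genes; 1801 with several symbols and 11721 with none listed were not assigned. The brightest probe set stood for its gene, a choice that matters for 10523 genes. No offset was added before the log2 step, so that folds of dim genes are inflated by noise. The test was limma 3.58.1 (R 4.3.3), fitted over all 9 arrays with a mean for each line, an empirical Bayes variance with an intensity trend and Benjamini-Hochberg adjustment over all genes. The methods state a p under 0.05 and a fold above 2 but name no array test. With 3 arrays against 3, the smallest p of an exact permutation test is 0.1. In simulated data with 200 changed genes the fit missed most of the 2-fold changes. A gene that did not pass may thus still differ. The residuals of same-numbered parental and NLS-actin arrays correlated with r = 0.234, 0.791 and 0.417 for numbers 1 to 3. These numbers were taken to pair those arrays, as a sign from the data and not from the labels. Replicate 2 of both lines lay on the opposite side of the first axis. A pair and a shared state of the arrays therefore cannot be told apart. Parental and WT-actin arrays were not treated as pairs.

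Named are all genes at an adjusted p under 0.05, up to 3 members of a function list with the smallest unadjusted p under 0.05, the actin genes and the genes that the methods measured by PCR. List members outside this rule, and the genes just outside the threshold, were named after their values were seen. The members and lists were chosen with earlier results of these data known. Lists are described by counts and medians, with no test. Gene order came from RefSeq, and promoters from RefSeq on GRCh38.p14. Python 3.11.15, with pandas 2.3.3 and matplotlib 3.10.9, made the tables and figures. Results were recomputed after quantile normalization, after adding 8.08 (the 25 percentile of the signals) before the log2 step, with dim genes filtered out, without the intensity trend, with a replicate block, with 2 lines only, with a gene's probe sets averaged, without cross-hybridizing probe sets, with Tukey's test, and without each array or without the 3 arrays on the opposite side of the first axis. A fit with the ACTB 3′ to 5′ ratio as a covariate and one with a replicate block in the paired arrays only were added after the data were seen. Probe sets with names ending in _s_at or _x_at were those left out as cross-hybridizing, by name alone. PAK1 and ACTG1 had no probe set with 1 symbol.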

Additional observations from a re-analysis of the deposited data

Results flagged for a closer look

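For 4 of the genes that differed between WT-actin and parental cells, the 3 WT-actin arrays lay on one side of all parental arrays and the 3 NLS-actin arrays on the other. The WT-actin side adds nothing to the selection, since none of the 32 genes overlapped there. The share of all genes with this order is not given here, so that the count of 4 has no background to be read against. TNFRSF10D differed between WT-actin and NLS-actin cells by -4.08 on the log2 scale (adjusted p = 6.92e-05 from limma), with NLS-actin signals of 440.4, 329 and 552 above all parental arrays. BCL11B differed by -4.34 (adjusted p = 0.000532), with NLS-actin signals of 326, 771 and 369. CNTN1 differed by -2.11 (adjusted p = 0.000499), with NLS-actin signals of 2649, 3778 and 3030.1. FMN2 differed by 5.18 (adjusted p = 6.92e-05), since its NLS-actin signals of 9.51, 18.3 and 10.5 lay below all parental arrays. Of these genes FMN2 passed in NLS-actin against parental cells (adjusted p = 0.0325), and TNFRSF10D, BCL11B and CNTN1 did not (adjusted p = 0.487, 0.334 and 0.172).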

How the results depend on the processing

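The 32 genes kept their direction in 19 of 20 alternatives, the exception being the omission of cross-hybridizing probe sets, which left BCL11B and CXCL8 without a probe set and dim ones with -0.81 for EYA1 and -0.99 for VGLL1. The count of 32 became 90 with the ACTB 3′ to 5′ ratio as a covariate, 14 with probe sets averaged, 12 without the intensity trend and 8 with Tukey's test, and ranged from 5 without parental replicate 1 to 43 without NLS-actin replicate 2. The number at the unadjusted thresholds, 604 in all, was 386 with an offset, 316 with Tukey's test and 272 with a filter on dim genes, which tested 11905 genes, and ranged from 522 without parental replicate 2 to 735 without WT-actin replicate 1. Its split of 177 higher and 427 lower genes became 295 and 313 after quantile normalization and 232 and 290 without parental replicate 2. Of the 32 genes, 23 differed between the actin lines, which became 14 with probe sets averaged and 6 with Tukey's test and ranged from 20 to 22 when single arrays were left out. The 7 called members of the function lists became 12 with the ratio as a covariate, 4 without the intensity trend, 3 with probe sets averaged and 1 with Tukey's test, and ranged from 2 without parental replicate 1 to 8 without NLS-actin replicate 2. The cause of these changes was not tested. Replicate numbers were not taken to pair the parental and WT-actin arrays, whose residual correlations differed in sign. They were -0.0768, -0.356 and 0.515 for numbers 1 to 3. With the replicate number as a block, 33 genes passed, 27 of the 32 among them. With the block only within the parental and NLS-actin arrays, 42 genes passed, 31 of the 32 among them, NTRK2 being the exception (adjusted p = 0.0546), and 23 of the 32 still differed between the actin lines. The 5 of the 32 that passed between NLS-actin and parental cells became 4 there, 3 with the block over all arrays, after quantile normalization, without cross-hybridizing probe sets or without the 3 arrays on the opposite side of the first axis, 2 without the intensity trend, 1 with probe sets averaged and 0 with Tukey's test (14 at an unadjusted p under 0.05), and ranged from 2 to 4 when single arrays were left out. The difference of chromosome 14 from other genes lay between -0.313 and -0.287 in all 20 alternatives.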
